A study of Homo sapiens with 6 samples.

Results

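Genes of MHC class I and of its peptide loading moved in both directions in KMS11 myeloma cells with CRIP1 knocked down. The genes examined were HLA-B, HLA-C, HLA-E and HLA-F, B2M, TAP1, TAP2, TAPBP and NLRC5. They were taken by gene symbol from the deposited table, in which all 9 were found among 17918 genes, and all 9 passed the filter on low counts, as did 12612 genes in all. TAPBP was 1.87-fold higher in the knockdown by counts, and B2M and HLA-E were higher by less. HLA-C, NLRC5, HLA-F and TAP2 were lower, NLRC5 most (scramble 1.45-fold above the knockdown). HLA-B and TAP1 were lower by counts but not past the threshold on log2(TPM + 1).

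The study sequenced RNA from KMS11, a human cell line of multiple myeloma, the malignancy of plasma cells. A hairpin RNA (shRNA) directed at CRIP1, which encodes a small LIM domain protein, was present in 3 libraries, labelled as a CRIP1 knockdown. A scrambled shRNA was present in the other 3, labelled WT. All 6 come from this 1 line and are labelled as having had no treatment. How many hairpin sequences were used, whether the cells were clones or a pool and how long after transfection they were taken are not given in the sources used here. The labels name no separate cultures for the replicates, and the p-values therefore cover the spread among these libraries alone, which may be technical.

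MHC class I molecules show peptides from inside the cell to CD8 T cells. Each is a heavy chain, encoded by an HLA gene, held together with the invariant light chain beta-2 microglobulin. Peptides made by the proteasome are pumped into the endoplasmic reticulum by the transporter TAP, and tapasin, encoded by TAPBP, bridges TAP to empty class I molecules and helps them load a peptide. NLRC5 is a transactivator that acts on the promoters of class I genes, B2M and TAP1. A myeloma cell keeps a very large secretory pathway, in which class I molecules are folded beside the antibody chains.

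Library totals were 17348822 to 18005318 estimated counts in the knockdown and 16971454 to 17243017 in scramble. CRIP1 itself had 486, 528 and 513 estimated counts in the knockdown libraries, against 10899, 13322 and 12300 in the scramble libraries (log2 fold change -4.71, SE 0.06, edgeR's quasi-likelihood test, adjusted p = 6.15e-22). The label of the cells was checked against 10 plasma cell markers. Of the 9 tested, 3 were higher and 6 lower, and their summed level was 3932 to 4190 TPM, a level scaled for transcript length and library size, in the knockdown and 8553 to 9008 TPM in scramble. Most of that gap was JCHAIN, the joining chain of secreted antibodies (1789 and 6443 TPM), and the other 9 summed to 2207 to 2290 TPM in the knockdown and 2353 to 2392 TPM in scramble. SLAMF7, a surface marker of plasma cells, was near 0 in both groups (0.14 and 0.0333 TPM). Of 15 erythroid markers 13 were higher and 1 lower, with summed levels of 846 to 860 TPM in the knockdown and 141 to 146 TPM in scramble. Nearly all of the scramble sum was TFRC, the 1 that was lower (93.3 TPM in the knockdown and 139 TPM in scramble). Of the 15, 11 had 0 counts in scramble. Of 6 epithelial markers 5 were higher and 0 lower (84.9 to 90.7 against 11.1 to 14.0 TPM summed). Of 3 myeloid markers tested 2 were higher (7.22 to 7.84 against 0.94 to 1.27 TPM, with ELANE at 0 throughout). Of 4 fibroblast and endothelial markers tested 1 was higher and 3 were lower (6.15 to 6.91 against 8.33 to 9.14 TPM). Of the T and NK cell markers, 0 passed the filter on counts (1.70 to 2.40 against 0.51 to 0.79 TPM, with NKG7 at 0 throughout). Of all genes tested, 39.4% were higher and 38.1% lower. Markers that passed the count filter through 1 group alone, such as the 11 erythroid ones at 0 counts in scramble, LYZ and CD33, could be called in that direction only. The markers moved with the same libraries as every result below, and their part in those results was not tested. In bulk RNA, fewer cells of a type and less RNA per cell cannot be told apart.

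The start regions of these genes are shown because the pathway is known for shared promoter elements, through which interferon, NLRC5 and the factor NF-kappa B act on several of its genes. RefSeq promoters on GRCh38.p14, reaching from 250 bases before the start to 50 after it, were matched by symbol for 7 of the 9 genes, and 6 are printed 5′ to 3′ along the gene's strand. Capitals mark exact matches, on either strand, to the core of the interferon-stimulated response element (GAAA and GAAA with any 2 bases between), GAANNGAAA (a shorter form of it, added after the sequences were seen), CCAAT (the Y box, seen as ATTGG on the other strand), TGACG (the X2 box core) and a kappa B-like site (GGGGA and TCCC with any 1 base between).
HLA-B promoter (chr6:31357130-31357429, minus strand): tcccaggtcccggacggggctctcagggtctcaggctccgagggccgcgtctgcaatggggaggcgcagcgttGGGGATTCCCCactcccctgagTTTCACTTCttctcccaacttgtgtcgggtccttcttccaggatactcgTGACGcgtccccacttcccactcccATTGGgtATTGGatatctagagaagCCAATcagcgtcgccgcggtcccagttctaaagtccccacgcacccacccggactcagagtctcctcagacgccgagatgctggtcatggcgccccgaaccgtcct
HLA-C promoter (chr6:31272043-31272342, minus strand): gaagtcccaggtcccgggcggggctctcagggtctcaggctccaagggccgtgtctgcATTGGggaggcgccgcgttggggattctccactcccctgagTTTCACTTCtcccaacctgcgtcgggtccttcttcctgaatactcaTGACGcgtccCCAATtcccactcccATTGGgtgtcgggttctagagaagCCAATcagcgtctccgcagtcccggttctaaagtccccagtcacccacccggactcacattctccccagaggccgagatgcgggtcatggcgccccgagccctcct
B2M promoter (chr15:44711267-44711566, plus strand): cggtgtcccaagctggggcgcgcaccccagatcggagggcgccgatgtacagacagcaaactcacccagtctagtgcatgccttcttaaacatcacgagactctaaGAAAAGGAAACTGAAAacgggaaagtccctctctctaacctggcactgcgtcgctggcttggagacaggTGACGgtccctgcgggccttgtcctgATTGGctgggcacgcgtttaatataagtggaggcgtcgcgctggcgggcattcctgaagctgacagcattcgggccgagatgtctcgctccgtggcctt
TAP1 promoter (chr6:32853655-32853954, minus strand): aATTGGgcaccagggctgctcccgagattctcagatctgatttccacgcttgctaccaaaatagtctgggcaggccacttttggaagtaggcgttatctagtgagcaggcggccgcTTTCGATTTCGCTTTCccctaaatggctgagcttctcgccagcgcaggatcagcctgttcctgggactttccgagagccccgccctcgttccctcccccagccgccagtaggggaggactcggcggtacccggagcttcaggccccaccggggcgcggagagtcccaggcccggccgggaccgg
TAP2 promoter (chr6:32838690-32838989, minus strand): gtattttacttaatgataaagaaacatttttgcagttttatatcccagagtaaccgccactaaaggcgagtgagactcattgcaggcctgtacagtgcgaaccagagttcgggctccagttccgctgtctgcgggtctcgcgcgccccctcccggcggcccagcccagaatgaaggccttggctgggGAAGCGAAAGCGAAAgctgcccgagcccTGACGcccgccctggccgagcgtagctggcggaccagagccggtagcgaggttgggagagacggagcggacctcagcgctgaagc
TAPBP promoter (chr6:33314029-33314328, minus strand): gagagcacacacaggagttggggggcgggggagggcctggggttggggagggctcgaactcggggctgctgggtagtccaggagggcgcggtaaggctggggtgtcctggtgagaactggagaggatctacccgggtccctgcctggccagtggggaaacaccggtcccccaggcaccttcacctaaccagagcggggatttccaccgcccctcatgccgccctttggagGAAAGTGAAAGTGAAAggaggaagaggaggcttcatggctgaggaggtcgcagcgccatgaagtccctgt

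The longer interferon element core was found in 5 of these 7 genes, namely HLA-F, B2M, TAP1, TAP2 and TAPBP, against 3.57% of 35116 promoters. In B2M, TAP1 and TAPBP, 2 matches overlap each other. The shorter form was found in HLA-B, HLA-C and TAP2 (7.66% of promoters), and in TAP2 it overlaps the longer one. CCAAT was found in HLA-B, HLA-C, HLA-F, B2M and TAP1 (34.6%), and TGACG in HLA-B, HLA-C, B2M and TAP2 (24.6%). The kappa B-like letters were found only in HLA-B among the 7 genes (0.424% of promoters), where the match reads on both strands over nearly the same bases. TAP1 has a second RefSeq start, whose window held none of these letters. Of the 5 genes with the longer core, TAPBP and B2M were higher and HLA-F, TAP1 and TAP2 lower by counts. HLA-B, HLA-C and TAP2, which hold the shorter form, were lower by counts, HLA-B not past the threshold on log2(TPM + 1). The shorter form was added after the sequences were seen, and a link between these letters and direction was not tested.

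In levels, which TPM allows between genes because it is scaled for length, B2M was the highest of the 9 genes in both groups and NLRC5 the lowest. In the knockdown the order was B2M, HLA-B, HLA-C, HLA-E, TAPBP, TAP1, TAP2, HLA-F and NLRC5, and no neighbours in it overlapped. In scramble TAP1 stood above TAPBP, and TAP2 and HLA-F overlapped. B2M ranked 5th of all genes by mean TPM in the knockdown and 23rd in scramble. Together the 9 genes held 0.908% to 0.969% of the TPM in the knockdown libraries and 0.819% to 0.858% in scramble.

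**Figure D1:**
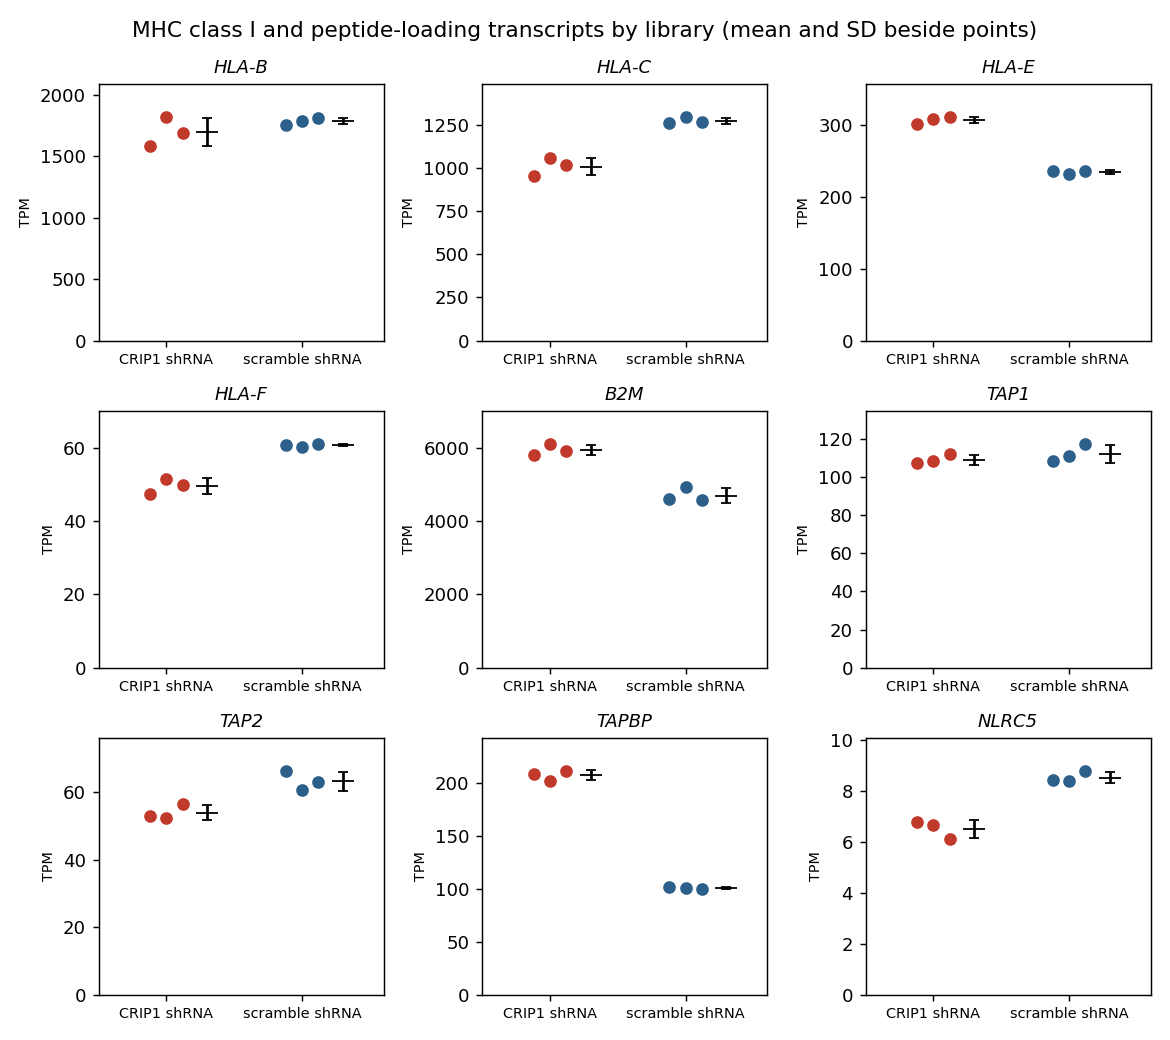
TPM of each of the 9 genes in every library (points), with the mean and SD of the 3 libraries of each group beside them, CRIP1 shRNA left of scramble shRNA and each axis starting at 0. TAPBP, B2M and HLA-E lie higher in every knockdown library, HLA-C, HLA-F, TAP2 and NLRC5 lie lower, and HLA-B and TAP1 overlap.

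All 9 genes passed the test, against 77.6% of all genes tested, so this count alone is no result about them. Of the 9, 3 were higher and 6 lower, against 39.4% and 38.1% of all genes, and their median log2 fold change was -0.17 against 0.01 over all genes. At 1.5-fold or more, TAPBP was the 1 gene called, against 35.4% of all genes, with 1 higher and 0 lower against 18.2% and 17.1%. The TPM of the groups did not overlap for 7 of the 9, against 78.5% of genes. Log2 fold changes are knockdown over scramble from edgeR on counts. When limma was run on log2(TPM + 1), 7 of the 9 were called against 77.4% of 11639 genes, 3 higher against 47.5% and 4 lower against 29.9%. There the median of all genes was 0.12, so folds read higher in TPM than by counts.

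HLA-B encodes 1 of the classical heavy chains and lies on chromosome 6 (chr6:31269491-31357188, GRCh38 as annotated by GENCODE 29, a span that reaches into HLA-C). It had 1584.6, 1818.1 and 1687.3 TPM in the knockdown libraries, against 1757.2, 1787.0 and 1808.7 TPM in the scramble libraries. The groups overlapped, since knockdown replicate 2 was the highest of the 6 libraries. By counts HLA-B was lower (log2 fold change -0.21, SE 0.04, adjusted p = 0.000157), and on log2(TPM + 1) it was not past the threshold (-0.07, adjusted p = 0.173).

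HLA-C, the other classical heavy chain examined (chr6:31268749-31272130), is also a main ligand of the killer-cell immunoglobulin-like receptors of NK cells. It had 955, 1055.4 and 1015.3 TPM in the knockdown, against 1263.7, 1295.1 and 1266.0 TPM in scramble. Every knockdown library lay below every scramble library, and the level fell by 20.9% in TPM. By counts the log2 fold change was -0.47 (SE 0.04, adjusted p = 4.98e-10), and it ranged from -0.52 to -0.31 over 16 alternative settings, past the threshold in each.

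HLA-E, a non-classical chain that presents leader peptides of other class I chains to the NKG2A receptor (chr6:30489467-30494205), went the other way. It had 302, 308 and 311 TPM in the knockdown, against 236, 232 and 236 TPM in scramble, so the groups stood clearly apart. The log2 fold change was 0.25 (SE 0.03, adjusted p = 6.81e-07), and in TPM the level was 31.0% higher. Over 16 alternative settings the log2 fold change ranged from 0.24 to 0.39, past the threshold in each, the highest values being those in TPM.

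HLA-F, a non-classical chain that can reach the surface without a peptide (chr6:29722775-29738528), was the least abundant of the 4 heavy chains. It had 47.4, 51.6 and 49.8 TPM in the knockdown, against 60.9, 60.4 and 61.0 TPM in scramble, with no overlap. By counts it fell by 0.25 on the log2 scale (SE 0.06, adjusted p = 0.000427), with -0.33 to -0.12 over the alternative settings.

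The heavy chains thus shifted against each other. HLA-C made up 32.9% ± 0.265 of the summed TPM of HLA-B, HLA-C, HLA-E and HLA-F in the knockdown and 38.0% ± 0.423 in scramble (SD, n = 3 each), and HLA-E made up 10.1% ± 0.476 and 6.99% ± 0.12. The ratio of HLA-B to HLA-C was 1.68 ± 0.0357 in the knockdown and 1.40 ± 0.0257 in scramble. Neither share nor the ratio overlapped between the groups. HLA-B, HLA-C, HLA-E and HLA-F all had counts that were not whole, which the authors' counting gives where reads fit more than 1 gene, so the split among these similar genes is uncertain. TAPBP also had counts that were not whole.

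B2M, the light chain shared by all of them, is on chromosome 15 (chr15:44711487-44718877). It had 5812.0, 6090.4 and 5919.4 TPM in the knockdown, against 4592.5, 4928.1 and 4561.1 TPM in scramble. The lowest knockdown library lay well above the highest scramble library. The log2 fold change was 0.20 (SE 0.04, adjusted p = 7.41e-05), or 26.6% higher in TPM, and its counts were whole in every library. The alternative settings gave 0.10, with the GC trend removed, to 0.34, in TPM.

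The summed TPM of HLA-B, HLA-C, HLA-E and HLA-F was 2889, 3233 and 3064 in the knockdown libraries, against 3318, 3374 and 3372 in scramble. Divided by B2M, this sum was 0.515 ± 0.017 in the knockdown and 0.715 ± 0.0279 in scramble (SD, n = 3 each), so heavy chain RNA per light chain RNA was 0.720 of the scramble value. Both measures were without overlap, and the exact two-sided permutation test gave p = 0.1 for each, the smallest that 3 against 3 allows. The ratio kept nearly that size in TMM-scaled CPM (0.741), a count scaled for library size alone. It was not computed with the GC trend removed. There HLA-B (-0.06), HLA-C (-0.31), HLA-F (-0.12) and B2M (0.10) changed less than without that correction, and HLA-E (0.35) more. Other class I heavy chains were not analysed here.

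**Figure D2:**
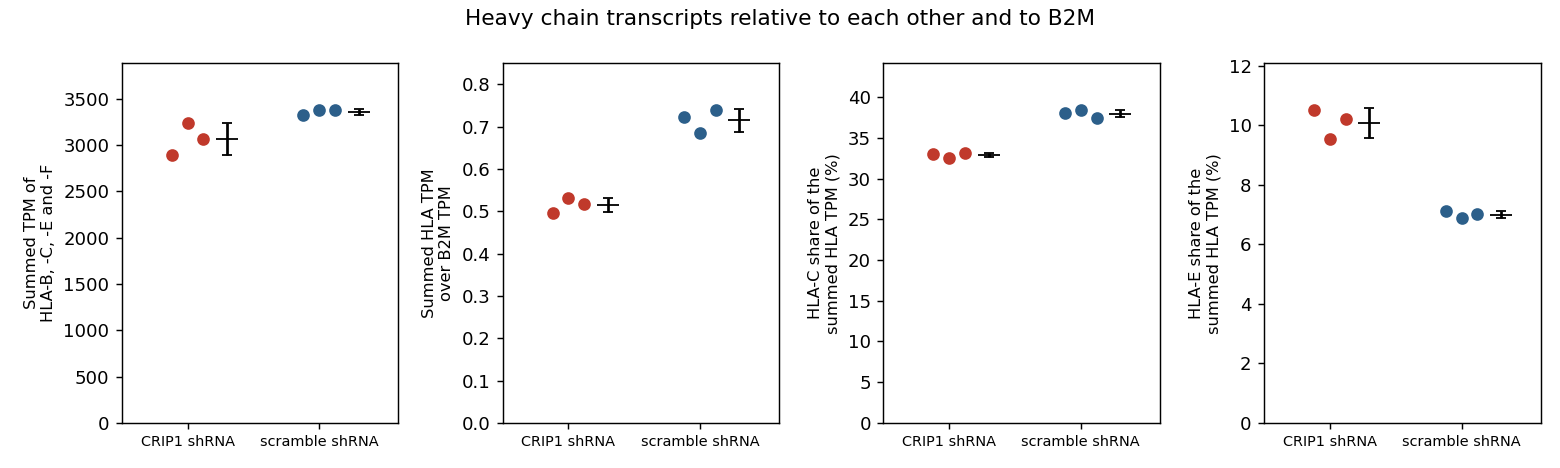
Summed TPM of HLA-B, HLA-C, HLA-E and HLA-F, that sum over the TPM of B2M, and the shares of HLA-C and HLA-E in the sum, per library (points) with the mean and SD of 3 libraries beside them, CRIP1 shRNA left of scramble shRNA. The ratio to B2M is 0.497 to 0.531 in the knockdown and 0.685 to 0.739 in scramble.

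TAP1 and TAP2 encode the paired subunits of the peptide transporter, and both lie among immunoproteasome genes in the class II part of the MHC. TAP1 (chr6:32845209-32853978) had 107, 108 and 112 TPM in the knockdown, against 108, 111 and 117 TPM in scramble. The groups overlapped in TPM. By counts TAP1 was lower (log2 fold change -0.17, SE 0.04, adjusted p = 0.000364), but not on log2(TPM + 1) (-0.04, adjusted p = 0.403). GENCODE 29 draws PSMB9 (chr6:32844136-32859585) across TAP1 on the opposite strand, and no strand setting of the counting is given, so reads of the pair cannot be told apart with certainty. The counts of both genes were whole in every library, so no sign of reads divided between them was seen. PSMB9 moved the other way (0.64, SE 0.05).

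TAP2 (chr6:32821833-32838780) had 53.0, 52.3 and 56.5 TPM in the knockdown, against 66.2, 60.6 and 63.0 TPM in scramble, a fall of 14.8% without overlap. Its estimated counts hardly differed, with 2435, 2341 and 2383 in the knockdown and 2458, 2425 and 2306 in scramble. The fitted log2 fold change was -0.14 (SE 0.04, adjusted p = 0.00341), the smallest of the 9 genes, and it reached -0.27 under the alternative settings.

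TAP2 read lower in TPM than by counts, where folds in general read higher in TPM, and the length by which the authors divided differed between the groups. The effective length implied by count, FPKM and library total was 4622, 4403 and 4328 bases for TAP2 in the knockdown libraries, against 3718, 3971 and 3720 bases in scramble. The groups did not overlap, the log2 ratio was 0.23, and of 9377 genes with at least 100 counts in every library 1.19% had a larger one in size. RSEM, named in the submitters' processing notes, weights this length by the transcripts it assigns reads to. GENCODE 29 lists 3 protein-coding TAP2 transcripts, of 2497 to 5684 bases, but which transcripts changed was not tested. HLA-F showed the same to a lesser degree, with 1068, 1043 and 1049 bases in the knockdown, against 914, 952 and 931 bases in scramble (log2 ratio 0.18, exceeded in size by 2.15% of genes). For the other 7 genes the log2 ratio lay between -0.01 and 0.00 and the groups overlapped.

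The ratio of TAP1 to TAP2 followed the unit. In TPM it was 2.02 ± 0.0447 in the knockdown and 1.77 ± 0.124 in scramble (SD, n = 3 each; exact two-sided permutation p = 0.1, the smallest possible). In TMM-scaled CPM the knockdown ratio was 0.979 of the scramble ratio and the exact permutation test gave p = 0.6.

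**Figure D3:**
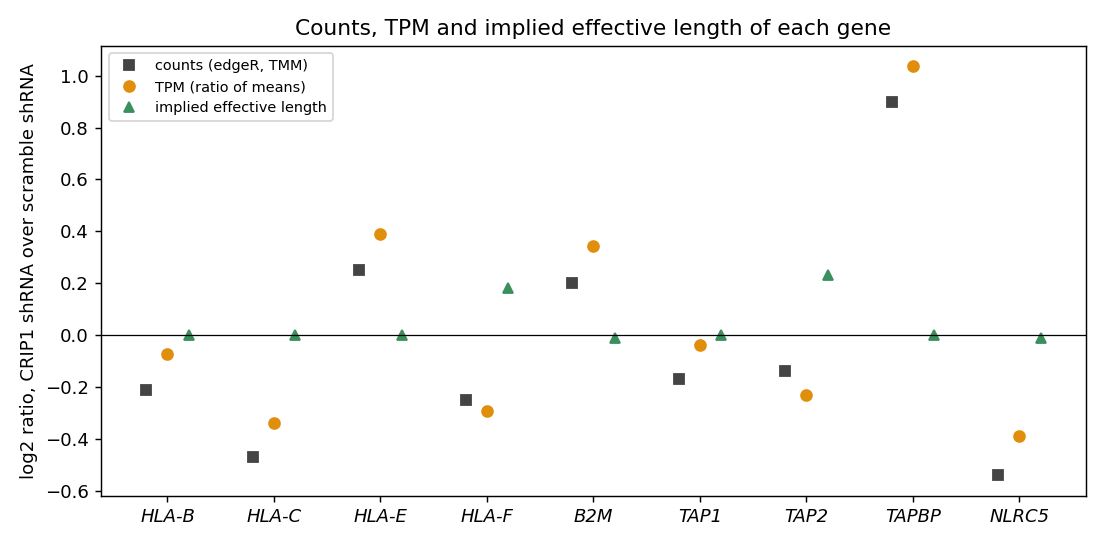
Log2 ratio of CRIP1 shRNA over scramble shRNA for each of the 9 genes by counts (squares, edgeR), by mean TPM (circles) and for the implied effective length (triangles). The length moved for TAP2 (0.23) and HLA-F (0.18), and these are the genes whose TPM lies below their counts.

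TAPBP, the gene for tapasin, stands beyond the class II region (chr6:33299694-33314387) and changed most among the 9 genes. It had 209, 202 and 211 TPM in the knockdown libraries, against 102, 101 and 100 TPM in scramble. The groups were far apart compared with the spread within them. The log2 fold change was 0.90 (SE 0.03, adjusted p = 2.76e-15), which is 1.87-fold by counts and 2.05-fold in TPM, and 79.1% of tested genes had a change as large or smaller in size. TAPBP relative to TAP1 was 1.90 ± 0.0406 in the knockdown and 0.903 ± 0.0438 in scramble (ratio of TPM, SD, n = 3 each). Its relative TAPBPL, encoding TAPBPR, a peptide editor that acts without TAP, was not past the threshold (30.4 and 29.1 TPM, log2 fold change -0.07, SE 0.07, adjusted p = 0.315).

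NLRC5 (chr16:56989485-57083531) had 6.77, 6.66 and 6.13 TPM in the knockdown, against 8.44, 8.38 and 8.77 TPM in scramble, from 344 to 391 and from 489 to 499 estimated counts a library. No knockdown library reached the scramble range. It fell by 0.54 on the log2 scale (SE 0.06, adjusted p = 1.99e-07), and the alternative settings gave -0.56 to -0.34. Among genes NLRC5 is known to act on, HLA-C and HLA-F were lower in all 16 settings and HLA-B and TAP1 by counts, while HLA-E, B2M and PSMB9 were higher in all 16. CIITA, the transactivator of class II genes, fell by 0.83 (SE 0.04, 46.9 and 74.3 TPM).

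The genes whose pattern lay nearest to NLRC5 over the 6 libraries were DDX23, ZNF689 and OSBPL11 (each at a distance of 0.06 in log2 CPM centred on the scramble mean). For B2M they were AURKAIP1 (0.05), RPL15 (0.06) and LEF1 (0.06). With so many genes moved, such nearness says little more than that their fold changes are alike, from -0.56 to -0.51 and from 0.19 to 0.22.

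Peptides for class I are cut by the immunoproteasome and its activator, and this step was split. Of 5 genes 2 rose and 3 fell, against 39.4% and 38.1% of all genes. The catalytic subunits PSMB9 (195 and 114 TPM, log2 fold change 0.64, SE 0.05) and PSMB10 (293 and 172 TPM, 0.63, SE 0.05) rose, and the subunit PSMB8 fell (113 and 124 TPM, -0.29, SE 0.05). Both subunits of the PA28 activator fell, PSME1 to 224 TPM in the knockdown, against 353 TPM in scramble (-0.79, SE 0.05), and PSME2 to 400 TPM, against 532 TPM (-0.54, SE 0.04). Each of these calls held in all 16 alternative settings.

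Among 6 peptidases that trim or destroy peptides, 3 rose and 3 fell, against 39.4% and 38.1% of all genes. Those that trim inside the endoplasmic reticulum or endosomes rose: ERAP1 to 87.8 TPM, against 49.3 TPM in scramble (0.70, SE 0.04), ERAP2 to 6.39, against 3.69 TPM (0.70, SE 0.10), and LNPEP to 32.9, against 23.0 TPM (0.38, SE 0.04). Of the cytosolic ones, THOP1 fell to 14.1 TPM, against 29.4 TPM (-1.21, SE 0.05), and TPP2 to 15.5, against 27.7 TPM (-0.97, SE 0.05). NPEPPS was lower by counts alone (-0.09, SE 0.04, adjusted p = 0.0388) and 0.05 on log2(TPM + 1), and its call was lost in 10 of 16 settings, among them those without CRIP1 shRNA replicate 1 or 2 and without scramble shRNA replicate 2 or 3.

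Of 8 genes for class I folding and quality control, 0 rose and 6 fell, against 39.4% and 38.1% of all genes, with a median of -0.25 against 0.01. On log2(TPM + 1) 1 rose and 5 fell, against 47.5% and 29.9%. CALR, the lectin chaperone of the loading complex, fell to 707 TPM in the knockdown, against 1283 TPM in scramble (-0.99, SE 0.03). PDIA3, the disulfide enzyme ERp57 that works with tapasin, fell to 228 TPM, against 269 TPM (-0.38, SE 0.03). UGGT1, which returns poorly loaded class I molecules for another cycle, fell to 16.6 TPM, against 21.6 TPM (-0.53, SE 0.04). TAPBP therefore rose while its partners CALR and PDIA3 in the loading complex fell.

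Of 14 transcription factors of class I promoters, 6 rose and 5 fell, close to the 39.4% and 38.1% of all genes, so the count is no result about them. The 3 subunits of NF-Y, which binds CCAAT, all rose: NFYA (0.47, SE 0.05), NFYB (0.95, SE 0.05; 49.8 and 23.1 TPM) and NFYC (0.64, SE 0.05). In the RFX complex that binds the X box, RFXANK fell to 72.9 TPM, against 151 TPM in scramble (-1.14, SE 0.05), and RFX5 fell (-0.30, SE 0.04), whereas RFXAP rose (0.47, SE 0.11). The interferon-driven factor IRF1 rose to 101 TPM, against 59.7 TPM (0.63, SE 0.05). NFYA, NFYC, RFX5, RFXAP and IRF1 were chosen after their values were seen.

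Of 8 genes that silence or degrade class I, 4 rose and 0 fell, against 39.4% and 38.1% of all genes, with a median of 0.09 against 0.01. EZH2, the methyltransferase of Polycomb complex PRC2, rose (229 and 170 TPM, 0.30, SE 0.04), as did the ubiquitin ligase WWP2 (42.2 and 23.6 TPM, 0.67, SE 0.05) and SUSD6, a membrane protein that brings it to class I (8.79 and 6.36 TPM, 0.33, SE 0.07). On log2(TPM + 1) 7 rose and 0 fell, against 47.5% and 29.9% of all genes. With a GC trend removed 5 rose and 1 fell, against 5087 and 4827 of the 12612 genes tested. The 1 that fell was the PRC2 subunit EED (-0.19 there, 0.05 and not past the threshold by counts). SUZ12, the PRC2 subunit that completes the 4 (0.09 by counts, adjusted p = 0.039), was at -0.06 and not past the threshold there. Its call was also lost without CRIP1 shRNA replicate 1 or 3 and without scramble shRNA replicate 1 or 3. The DESeq2 Wald test and the fit with no filter on low counts lost it too, so it held in 9 of 16 settings. EED and SUZ12 were named after their values were seen.

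The interferon response, the main inducer of class I, had 9 of 20 tested genes higher and 9 lower, an even split like the 39.4% and 38.1% of all genes. On log2(TPM + 1) 11 were higher and 9 lower, against 47.5% and 29.9%. There IFIT1 (1.17 and 0.527 TPM) and GBP1 (1.93 and 0.667 TPM) passed the filter on TPM only through the knockdown. Their directions in that setting were set by that entry. IFIT1 was named after its values were seen. PSMB8 and PSMB9, described above, are among the interferon response genes. The receptor chain IFNGR1 rose to 55.3 TPM, against 24.8 TPM in scramble (1.02, SE 0.06), and the receptor chain IFNAR2 fell to 51.5 TPM, against 87.5 TPM (-0.94, SE 0.04). SOCS1, a feedback inhibitor of the JAK kinases, fell to 6.60 TPM, against 24.2 TPM (-2.01, SE 0.11). Interferon-induced genes went both ways, ISG15 (-1.06, SE 0.11) and MX1 (-1.35, SE 0.12) down and GBP1 (1.39, SE 0.23) and IFI35 (0.61, SE 0.05) up, these 4 chosen after their values were seen.

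Of the tested class I-like molecules and ligands of NK cell receptors most were higher, though for some the count filter fixed the direction. Of 11 tested genes 9 rose and 1 fell, against 39.4% and 38.1% of all genes, and the median was 0.55. MR1, which presents vitamin B metabolites to mucosal T cells, rose to 45.7 TPM, against 25.8 TPM in scramble (0.72, SE 0.04), and ULBP1, a ligand of the NKG2D receptor, rose to 28.3 TPM, against 11.0 TPM (1.23, SE 0.06). NCR3LG1, a ligand of NKp30, was at 0.983 and 0.337 TPM (1.40, SE 0.20), and PVR, a ligand of DNAM-1 and TIGIT, at 0.413 and 0.0567 TPM (2.60, SE 0.40), both higher from very low levels (for PVR 2 to 4 counts a scramble library). HFE, an iron regulator of class I form, was the 1 gene that fell (0.213 and 0.66 TPM, -1.40, SE 0.30), named after its value was seen. PVR and ULBP2 (18, 22 and 29 counts in the knockdown, 5, 6 and 6 in scramble) passed the count filter only through the knockdown, and HFE only through scramble. Their directions were set by that entry and say nothing about the list. ULBP2 was named after its value was seen. With at least 50 counts required in 3 libraries, 7 rose and 0 fell. Of all 8771 genes called there, 4416 were higher and 4355 lower. NCR3LG1 and MICA (74, 90 and 66 counts in the knockdown, 47, 49 and 47 in scramble) passed that filter only through the knockdown. Their directions there were set by that entry. MICA was named after its values were seen.

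**Figure D4:**
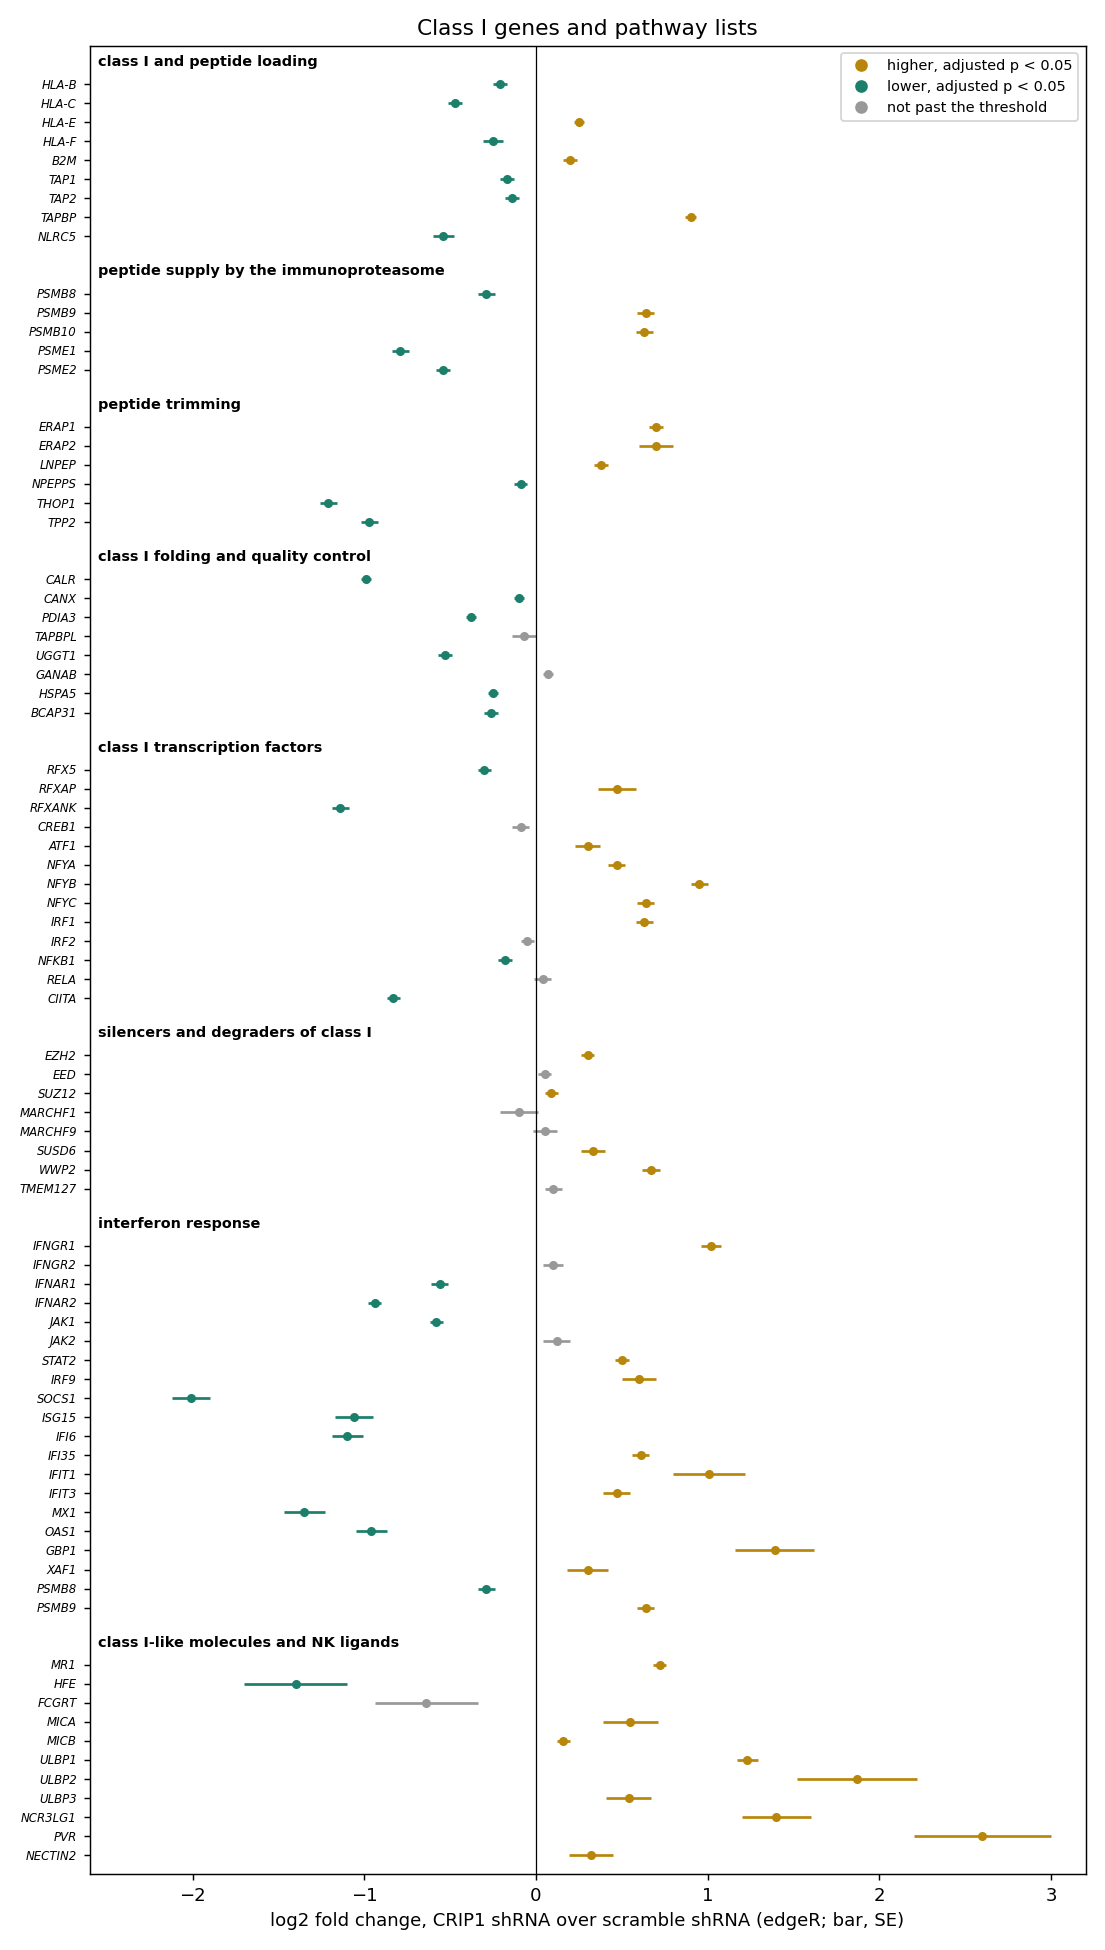
Log2 fold change of CRIP1 shRNA over scramble shRNA (edgeR; bars, SE) for the 9 class I genes and for tested genes of 7 pathway lists, coloured by whether the adjusted p was under 0.05 and in which direction. CALR (-0.99) and TAPBP (0.90) lie at opposite sides, and the class I-like genes lie mostly to the right.

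The genes around these on chromosome 6 were called about as often as the rest, but more were higher than lower. Between the start of HLA-F and the end of TAPBP (chr6:29722775-33314387), 94 tested genes besides the 7 of the 9 that lie there (PSMB8 and PSMB9 among the 94) had 46 higher and 23 lower, which is 73.4% called against 77.6% of all genes. By direction, 39.4% of all genes were higher and 38.1% lower by counts. The median of the 94 was 0.13 by counts, against 0.01 for all genes. On log2(TPM + 1), 53 of 92 were higher and 14 lower, against 47.5% and 29.9% of all genes, with a median of 0.23 against 0.12.

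**Figure D5:**
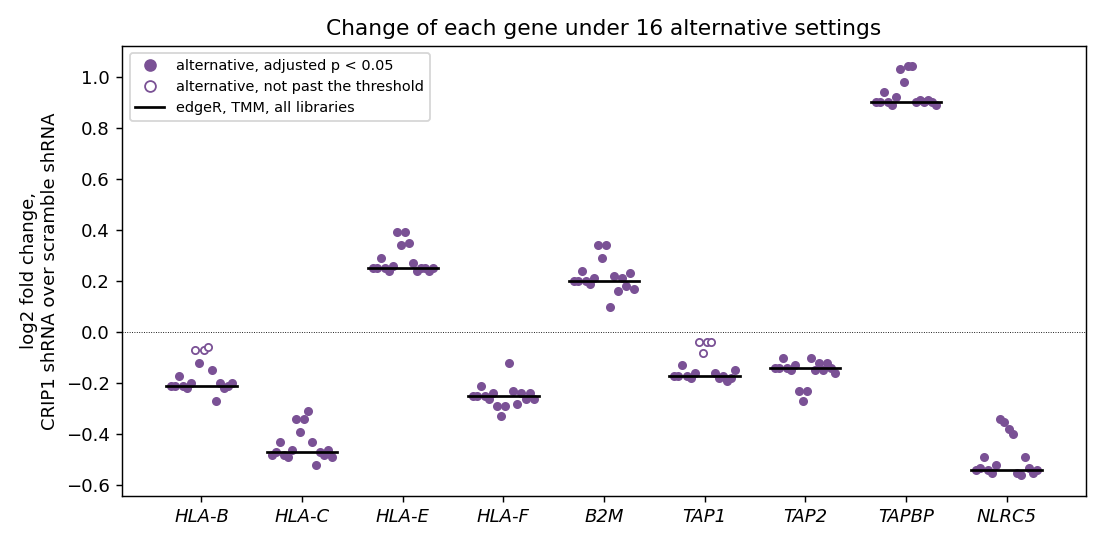
Log2 fold change of CRIP1 shRNA over scramble shRNA of each of the 9 genes under 16 alternative settings (circles, open where the adjusted p was not under 0.05) and from edgeR with all libraries (line). No gene crosses 0, and the open circles belong to HLA-B and TAP1.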

How the data were processed

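RNA sequencing of 6 KMS11 libraries was analysed, 3 with an shRNA against CRIP1 and 3 with a scrambled shRNA, grouped and numbered by the sample titles. The deposited table gives estimated counts per gene (expected counts, which need not be whole), made by the authors from aligned reads, with FPKM and TPM, per the file headers. FPKM divides by gene length and library total, and TPM is also scaled to 1 sum per library. RSEM 1.2.8, HISAT2 2.1.0, Bowtie2 2.2.5 and GRCh38.p13 are listed in the submitters' processing notes with no role, and no source used here names the annotation.

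Rounded counts went into edgeR 4.0.16 under R 4.3.3 (filterByExpr, minimum count 10, TMM, quasi-likelihood, group alone, Benjamini-Hochberg adjustment over 12612 genes, threshold 0.05). The SE is the log2 fold change over the square root of F. TPM means and SDs are over 3 libraries. The common biological coefficient of variation came to 3.33%. Libraries of 1 group differed by more than sampling noise (mean chi-square per gene 1.62 to 4.15, against 99.3 to 104 between groups). Alternatives were those of limma 3.58.1 on log2(TPM + 1), log2(TPM + 0.1) and log2(FPKM + 1) of the deposited values, DESeq2 1.42.0, other scalings and filters, a loess offset on GC content (span 0.5), a replicate block and each library left out. Permutation tests were run in scipy 1.17.1. The implied effective length is the count divided by FPKM and library total, scaled to bases. In simulated data with few genes changed, the fit recovered 37 of 60 genes at 1.25-fold, 70 of 74 at 1.5-fold and 62 of 63 at 2-fold, with 11 false calls. Far more genes moved in the real data, so the simulation does not check the calls made here. The members and lists were chosen with earlier results of these data known. Of each list the 3 genes of smallest adjusted p and the largest called fold were named, and all in lists of up to 6; the values of 1 listed gene are counted but not reported here. Positions are from GENCODE 29 and promoters from RefSeq, GRCh38.p14.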

Additional observations from a re-analysis of the deposited data

How the results depend on the processing

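Over 16 alternatives for each of the 9 genes (other scalings, tests, filters and units, a GC correction, the replicate block and each library left out), no fold change turned its sign. HLA-C, HLA-E, HLA-F, B2M, TAP2, TAPBP and NLRC5 passed the threshold in each. HLA-B did not pass on log2(TPM + 1) (-0.07, adjusted p = 0.173), on log2(TPM + 0.1) (-0.07, 0.178) or with the GC trend removed (-0.06, 0.07), and its other alternatives ranged to -0.27. TAP1 did not pass on log2(TPM + 1) (-0.04, 0.403), log2(TPM + 0.1) (-0.04, 0.401) or log2(FPKM + 1) (-0.08, 0.0648), or with the GC trend removed (-0.04, 0.324). The cause was not tested. The silencers and degraders of class I had 7 called genes on log2(TPM + 1) and 7 on log2(TPM + 0.1), against 4. In TMM-scaled CPM the summed HLA-B, HLA-C, HLA-E and HLA-F of knockdown over scramble was 0.851 in place of 0.913, and the TAP1 to TAP2 ratio turned, to 0.979 from 1.14, where CPM takes no account of the TAP2 length. With the replicate number as a block, 9816 genes were called in place of 9783 and all 9 genes here. Same-numbered libraries did not deviate together (r of 0.0455, -0.00877 and -0.0133 for the 3 pairs), so the numbers are not taken as pairs. NLRC5, with 344 to 499 counts a library, is the least precisely measured of the 9 together with HLA-F (SE 0.06 each).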
